A study of Mus musculus with 6 samples.

Results

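The genes described here were Cav1, Cav2, Cavin1, Cavin2, Plvap, Cldn5, Ocln, Esam, Jam2 and Emp2, 10 of the 31053 genes counted. They were chosen by name, with earlier results of these data known, for the coat of caveolae, the diaphragm of fenestrae, and the junctions of endothelial cells (ECs). Emp2, described below, belongs to none of these. The counts of members set beside those of all genes tested below are therefore descriptive. Each of the 10 was found in all 6 count tables. They were followed in mouse lung by single-cell RNA-seq (10x Genomics 3′ v3 libraries), with 1 library for each group. Cells of Cxcl12DsRed/+ mice, which carry a DsRed reporter allele at 1 copy of Cxcl12, were sorted for red fluorescence at embryonic days 13.5, 15.5 and 18.5 (E13.5, E15.5, E18.5) and at postnatal day 8 (P8). The other 2 libraries were whole E18.5 lungs, 1 labelled heterozygous control (Cxcl12DsRed/+) and 1 labelled homozygous null (Cxcl12DsRed/DsRed), so that every group carried at least 1 reporter allele. In the sort, cells with CD45 or EpCAM on their surface were left out, and the study's methods describe the time course as reporter-positive ECs with surface CD31. Reporter-positive cells without CD31 were collected as a separate, mesenchymal-enriched fraction. The 4 sorted libraries thus stand for reporter-positive cells and not for all ECs of the lung. No group had a second library, so no test between groups was possible, and the values below carry exact Poisson or binomial 95% intervals that cover counting error only.

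ECs were defined by at least 2 unique molecules (UMIs) of Pecam1 and Cdh5 in sum. In order of age they numbered 210 of 12726, 9453 of 11649, 9119 of 9542 and 8259 of 8451 kept cells in the sorted libraries. The E13.5 library was therefore mostly mesenchymal (12161 cells outside the EC definition had that class), which goes against a sort for CD31. It may be the fraction without CD31, which the labels do not settle, and its ECs would then be cells left over from the sort. The E13.5 levels, and the E13.5 to E15.5 ratios that rest on them, are therefore values of that library, and age and sorted fraction cannot be told apart in them. The summed level of 7 mesenchymal markers within the ECs also differed by age, at 958, 392, 163 and 55.3 CPM (counts in every 1e+06 UMIs of the population) in the same order. Libraries held 63746333 to 117522172 UMIs, the median EC held 5667 to 8610 UMIs across the libraries, and 590 cell barcodes of 63659 occurred in more than 1 library.

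The targeted gene was checked first in the whole lungs. Cxcl12 was at 568 CPM (559 to 577) in ECs of the library labelled null and at 5.23 CPM (4.15 to 6.51) in ECs of the library labelled control. In mesenchymal cells the levels were 54.7 and 0.458 CPM. The library labelled null thus held the higher Cxcl12 level, against its label. The names of the deposited tables also give the genotypes the other way round, so the labels may be swapped, and each direction between these libraries below would then turn. They are named as "the library labelled null" and "the library labelled control", with directions given as labelled.

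Caveolae are flask-shaped pits of the plasma membrane, held in shape by caveolins (Cav1, Cav2) and by the cavin coat proteins (Cavin1, Cavin2), and they are abundant in the endothelium of the lung. Plvap (PV-1) is the protein of the thin diaphragms that span fenestrae and the necks of caveolae. The barrier between neighbouring ECs is made by tight junctions, with Cldn5 as their main endothelial claudin and Ocln as a partner membrane protein, and by adhesion molecules of the immunoglobulin family such as Esam and Jam2. Emp2 is a membrane-spanning protein of the epithelial membrane protein family that is known from alveolar type 1 cells, the thin cells that face the capillaries. Lung capillaries comprise general capillary cells and Car4-expressing aerocytes, which spread over the gas-exchange surface.

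Cav1 and Cav2 are neighbours on mouse chromosome 6 (GRCm38, both on the plus strand, chr6:17306335-17341452 and chr6:17281185-17289115), with 17219 bases between them. Cldn5 (chr16:18776847-18778262, plus) and Emp2 (chr16:10281749-10313968, minus) lie on chromosome 16, as does Jam2 (chr16:84774123-84825928, plus). The others are Cavin1 (chr11:100956733-100970887, minus), Cavin2 (chr1:51289126-51302960, plus), Plvap (chr8:71497765-71511752, minus), Ocln (chr13:100496507-100552718, minus) and Esam (chr9:37528078-37538319, plus). The annotated gene Gm25908 overlaps Jam2 on the same strand, and no member shared a 60-base stretch of its last 300 transcript bases with another gene. The stretch of 250 bases before the start of transcription is shown for these 4 genes, because Cav1 and Cav2 parted in level after birth and because Cldn5 and Emp2 were both higher in Car4-expressing ECs (values below). The sequences are from RefSeq (GRCm38.p6), available for 7 of the 10 members, and run 5′ to 3′ along the gene. The members not in that table were Plvap, Esam and Jam2. For Cav1, which has several entries there, the window at the annotated gene start is shown.
Cav1 (chr6:17306085-17306334, plus): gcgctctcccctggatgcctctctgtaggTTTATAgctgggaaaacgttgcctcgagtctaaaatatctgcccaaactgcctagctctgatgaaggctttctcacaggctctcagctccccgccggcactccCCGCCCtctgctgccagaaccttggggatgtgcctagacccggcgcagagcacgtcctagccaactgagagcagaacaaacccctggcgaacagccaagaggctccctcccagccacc
Cav2 (chr6:17280935-17281184, plus): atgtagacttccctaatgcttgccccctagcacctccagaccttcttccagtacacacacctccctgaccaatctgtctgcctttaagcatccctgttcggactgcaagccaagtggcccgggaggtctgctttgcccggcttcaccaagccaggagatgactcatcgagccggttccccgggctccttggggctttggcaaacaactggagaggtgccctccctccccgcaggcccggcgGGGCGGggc
Cldn5 (chr16:18776597-18776846, plus): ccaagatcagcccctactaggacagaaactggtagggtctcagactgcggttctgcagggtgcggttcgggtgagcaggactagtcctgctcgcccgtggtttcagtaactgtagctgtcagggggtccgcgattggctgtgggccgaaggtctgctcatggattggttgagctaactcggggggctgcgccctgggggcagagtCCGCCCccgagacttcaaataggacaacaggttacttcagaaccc
Emp2 (chr16:10313969-10314218, minus): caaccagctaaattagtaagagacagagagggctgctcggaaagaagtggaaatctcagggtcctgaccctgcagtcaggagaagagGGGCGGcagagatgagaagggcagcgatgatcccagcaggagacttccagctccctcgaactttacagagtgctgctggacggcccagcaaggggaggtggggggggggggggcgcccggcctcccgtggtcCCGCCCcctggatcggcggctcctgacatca
Capitals mark matches, on either strand, to 5 short motifs that were searched. These were the TATA box, spelled TATAAA, and the GC box, spelled GGGCGG. The others were the ETS motif with the letters AGGAAG, the GATA motif with the letters AGATAA and the SOX motif with the letters AACAAT. The 4 windows held a GC box, which 32.7% of all 32851 promoters of the same length also held. The Cav1 window alone of the 4 held the TATA box letters, found in 12.4% of all promoters. That match lies on the other strand, near the upstream end of the window. The Cav1 entry at chr6:17307390-17307639 had no match to any of the 5 motifs. The other motifs had no match in these 4 windows, against 29.5% (ETS), 9.99% (GATA) and 9.42% (SOX) of all promoters, and Cavin2 had 1 SOX match. GC content was 59.6%, 62%, 59.6% and 62.8% in the order shown, against a median of 52.4% over all promoters.

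The levels in all sorted ECs were compared between successive time points on the log2 scale of CPM after adding 1 CPM, and a member was called past 2-fold where that ratio reached 1 in size and the gene had at least 50 CPM at 1 of the 2 times. From E13.5 to E15.5, where the sorted fraction may differ too, 2 of the 8 members with enough counts were higher past 2-fold. None was lower. Of the 3319 genes tested by the same rule, 2.89% were higher and 2.23% were lower. Each background below is likewise a share of the genes tested. From E15.5 to E18.5, 5 of 9 were higher and none was lower (background 9.81% higher, 4.54% lower). From E18.5 to P8, 1 of 9 was higher and none was lower (background 5.03% higher, 3.8% lower). The median log2 ratio of the tested members was 0.63, 1.01 and 0.31 in the 3 steps, against -0.02, 0.09 and 0.09 over all genes tested. Ocln was below 50 CPM at each time point, so it was not tested in any step, and Emp2 was below it at E13.5 and E15.5, so it was not tested in the first.

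Cav1, the structural caveolin, peaked before birth. In order of age its level was 299 CPM (274 to 325), 909.8 CPM (904 to 916), 1559 CPM (1549 to 1569) and 804 CPM (797 to 811). The E13.5 to E15.5 step was past 2-fold (log2 ratio 1.60), and the E18.5 to P8 step, at -0.96, fell just short of it. In ECs split by the gate genes described further on, the E18.5 to P8 ratio was -1.20 with Gja4 alone, -0.80 with Gpihbp1 alone and -1.41 with Car4 alone, so the lower level at P8 was seen in each. With every EC that passed a gate counted in it, the ratios were -0.99, -0.95 and -0.90, none past 2-fold. That alternative was chosen after seeing the data.

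Cav2, which forms hetero-oligomers with Cav1, did not share that decline. It was at 77.1 CPM (64.8 to 91.1), 143 CPM (140.3 to 145), 385 CPM (379.6 to 389.5) and 477 CPM (472 to 482) in the same order of age. The step from E15.5 to E18.5 was past 2-fold (log2 ratio 1.42), and the step to P8 was 0.31. The caveolin neighbours therefore were both higher at each step up to E18.5 and moved in opposite directions after it, with counting intervals that did not overlap.

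The cavins also differed from each other. Cavin1, without which caveolae do not form, was at 109 CPM (94.1 to 125), 184 CPM (181 to 186), 221 CPM (217 to 225) and 198 CPM (194 to 201), and none of its steps was past 2-fold. Cavin2, which helps to bend the membrane, was at 185 CPM (166 to 206), 266 CPM (263 to 269), 616 CPM (609.9 to 622) and 1101 CPM (1093 to 1109). Its level was higher at each later time, past 2-fold from E15.5 to E18.5 (1.21) and at 0.84 from E18.5 to P8.

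Plvap was at 293 CPM (269 to 319) at E13.5 and 276 CPM (272 to 279) at E15.5, with overlapping intervals. It was higher at E18.5, at 414 CPM (409 to 419), and again at P8, at 706 CPM (699 to 713), each step below 2-fold. In ECs with Car4 alone the last step ran the other way, and in all Car4-expressing ECs it did not (values with the gates).

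Cldn5 had its lowest level at E15.5. From the youngest to the oldest library it was at 1320.2 CPM (1268 to 1374), 978 CPM (972 to 984), 2438 CPM (2425 to 2450.2) and 4217 CPM (4201 to 4234), with the E15.5 to E18.5 step past 2-fold (1.32). Ocln, its partner, was scarce throughout, at 7.77, 10.3, 33.2 and 43.6 CPM. After each cell was thinned to 2000 UMIs an Ocln UMI was found in 2.3% of ECs at E15.5 and 9.03% (8.41 to 9.68%) at P8, while none of 2084 non-endothelial mesenchymal cells of the E15.5 library had one.

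Of the immunoglobulin-family adhesion molecules, Esam varied less with age than Jam2. Esam was at 481 CPM (449 to 514), 575 CPM (569.7 to 579), 821 CPM (814 to 829) and 728 CPM (721 to 735), with no step past 2-fold. Jam2, a ligand for leukocyte integrins and for Jam3, was at 30 CPM (22.5 to 39.1), 71.8 CPM (70.1 to 73.5), 146 CPM (143 to 149) and 126 CPM (123 to 128). Jam2 was past 2-fold in the first step (1.23) and narrowly in the next (1.01). The first ratio was below 2-fold in 1 of 11 alternative treatments of the data (0.97 with ECs selected on counts thinned to 2000 UMIs per cell). The second was below it in 6 of the 11, at 0.91 to 1.00, among them leaving out cycling ECs (0.91) and ECs that also held markers of other classes (0.99).

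Emp2 had the steepest course of the 10. It was at 12.8 CPM (8.09 to 19.2), 20 CPM (19.1 to 20.9), 188 CPM (185 to 192) and 492 CPM (486 to 498), past 2-fold in the last 2 steps (log2 ratios 3.17 and 1.38). Thinned to 2000 UMIs, the shares of ECs with an Emp2 UMI in the last 3 libraries by age were 4.29% (3.89 to 4.72%), 17.3% (16.5 to 18.1%) and 28% (27 to 29%). Without thinning the shares were 14.5%, 29.2% and 41.3%. Libraries of the same age differed too. Of thinned ECs of whole E18.5 lungs, by the stricter EC definition given below, 9.35% (labelled control) and 6.38% (labelled null) held an Emp2 UMI. Mesenchymal cells outside the EC definition held the gene more often in the same libraries, at 7.92% (6.79 to 9.16%) at E15.5 and 28.7% (23.6 to 34.2%) at E18.5. These cells express the gene and are no background for it. Among E15.5 ECs the share was 5.79% (5.19 to 6.43%) in the Gja4 gate and 0.804% (0.368 to 1.52%) in the Gpihbp1 gate.

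**Figure D1:**
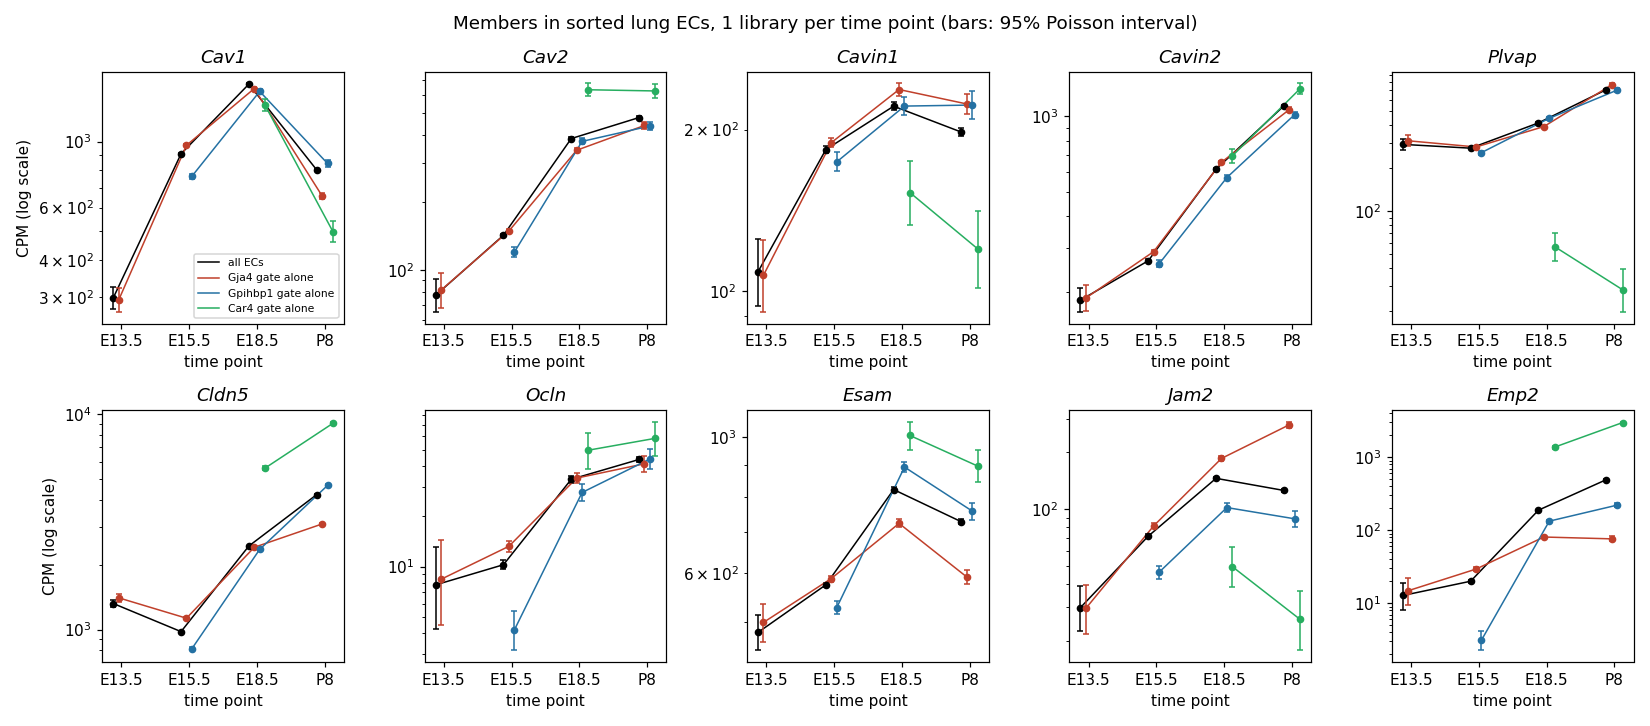
Level of each member in sorted ECs (vertical axis, CPM on a log scale) against time point (horizontal axis), for all ECs (black) and for ECs that passed the Gja4, Gpihbp1 or Car4 gate alone. Points are single libraries and bars are 95% Poisson intervals. Cav1 is lower at P8 than at E18.5 in every line, Plvap is higher at P8 in the Gja4 and Gpihbp1 lines and lower in the line of ECs with Car4 alone, and Emp2 differs most between the lines.

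Of other caveola genes on a list of 12, those past 2-fold were Cd36 and Nostrin from E15.5 to E18.5, when 7 had enough counts. Cd36, a fatty acid receptor, was at 19.1 CPM and then 259.8 CPM, and Nostrin, an adaptor that binds endothelial nitric oxide synthase, at 19.7 and 117 CPM. From E18.5 to P8 both were past 2-fold again, at 618 and 259 CPM, while Cavin3, a cavin, was lower, from 264 to 125 CPM. Cavin3 and Cav1 thus had lower levels after birth while Cav2 and Cavin2 had higher ones.

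On the list of 16 other tight junction genes, Marveld1 was higher at E18.5 than at E15.5 (77.9 against 33.5 CPM), 1 of 4 with enough counts. None was past 2-fold in the other steps. Of 12 listed adherens and other junction genes, 11 of them in the tables, Nectin3 was higher at E18.5 than at E15.5 (85.5 against 37.4 CPM) and Nectin2 was lower at P8 than at E18.5 (28.9 against 61.1 CPM). Among 4 relatives of Emp2, Pmp22, the peripheral myelin protein, was lower at E15.5 than at E13.5, at 32.5 against 66.6 CPM. At E18.5 Pmp22 was higher than at E15.5, at 379.9 CPM, and so was Emp1, at 187 against 73.1 CPM. The median log2 ratio of the tested genes of these lists from E15.5 to E18.5 was 0.70 (caveola), 0.80 (tight junction), 0.42 (other junction) and 0.92 (Emp family).

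ECs were next split by at least 2 UMIs of Gja4 (a connexin of arterial ECs), Gpihbp1 (a capillary anchor for lipoprotein lipase) or Car4 (carbonic anhydrase 4, a marker of aerocytes), and a cell counted in a gate only if it passed that gate alone. At E13.5, 91.4% of ECs passed the Gja4 gate, so the time course there is that of Gja4-expressing ECs. The gates held 3743, 1753 and 267 cells at E18.5 and 1525, 936 and 223 at P8, and 5206 of the 8259 P8 ECs passed more than 1 gate and entered none of them. At E15.5 the Gja4 and Gpihbp1 gates held 5657 and 1120 cells, and the Car4 gate too few to use. A list of 6 arterial markers summed to 2459.6 CPM in the Gja4 gate and 902 in the Gpihbp1 gate at E18.5. A list of 5 venous markers was also highest in the Gja4 gate. It summed to 569, 135 and 91.7 CPM in the Gja4, Gpihbp1 and Car4 gates at E18.5, and to 747, 114 and 43.8 CPM at P8. A list of 6 aerocyte markers summed to 2433 and 2285 CPM in the Car4 gate at E18.5 and P8, and to 449.8 and 244 in the Gpihbp1 gate. A list of 5 general capillary markers was not highest in the Gpihbp1 gate (728 CPM, against 1258 in the Gja4 gate at E18.5), so the gates are called by their genes. Summed markers of other cells also differed: 6 epithelial markers were at 1279, 644 and 30 CPM in the Gja4, Gpihbp1 and Car4 gates at P8, and 5 erythroid markers at 396, 2287 and 186 CPM at E18.5. Their part in the differences below was not tested.

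Between the Gpihbp1 and Gja4 gates no member of 8 tested was past 2-fold at E15.5 (background 11.4%), none of 9 at E18.5 (background 13.7%) and 2 of 9 at P8 (background 9.94%). Over the tested members the median log2 ratio was -0.24, -0.03 and -0.01, against -0.04, -0.02 and 0.05 over all genes tested. The 2 were Jam2, higher in the Gja4 gate, and Emp2, higher in the Gpihbp1 gate. Jam2 was at 280.4 CPM (269 to 292) in the Gja4 gate at P8 and at 88.8 CPM (80.7 to 97.5) in the Gpihbp1 gate, and at 186 and 102 CPM at E18.5. Emp2 was, at P8, at 76.1 CPM (70.4 to 82.1) in the Gja4 gate and 220.5 CPM (208 to 234) in the Gpihbp1 gate. At E15.5 Emp2 was instead higher in the Gja4 gate, at 29.4 CPM (27.9 to 30.9) against 3.13 CPM (2.25 to 4.23), though under 50 CPM in both. Both P8 calls were lost when cells that passed several gates were counted in each of them, with log2 ratios of -0.42 for Jam2 and 0.29 for Emp2. The Emp2 call was also lost when the gates were applied after thinning to 2000 UMIs (0.94).

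Cldn5 changed its order between these gates with age. It was lower in the Gpihbp1 than in the Gja4 gate at E15.5 (815 and 1129 CPM), nearly level at E18.5 (2352 and 2404 CPM) and higher at P8 (4652 and 3084 CPM). With every EC that passed a gate counted in it, the log2 ratios were -0.37, 0.035 and 0.13, so the P8 difference was then small. The gates also differed in cycling cells, with 5 cycling genes summing to 1364 CPM in the Gpihbp1 gate and 597 in the Gja4 gate at E15.5, and in depth, with median UMIs per cell of 10476 and 7847. The part of either in the Cldn5 difference was not tested. Among the listed relatives, Nostrin, Cd36, Nectin3 and Pmp22 were higher past 2-fold in the Gpihbp1 gate at both E18.5 and P8. Nos3, Marveld1 and Emp3 were lower there at both ages. By list, 2 of 7 tested caveola genes were higher and 2 lower at E18.5, and 2 higher and 1 lower at P8. Ehd1 and Cgnl1, a junction scaffold protein, were lower in the Gpihbp1 gate at E15.5 and E18.5, and Emp3 and Tmem47 at E15.5.

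The Car4 gate stood apart from the Gpihbp1 gate. At E18.5, 2 of 9 tested members were higher and 2 were lower (background 5.29% higher, 4.17% lower), and at P8 1 of 10 was higher and 2 were lower (background 5.64% higher, 5.59% lower). Tested members had a median log2 ratio of 0.17 and 0.29, against 0.03 and 0.02 over all genes tested. The members past 2-fold were Emp2 and Cldn5, which were higher, and Plvap and Jam2, which were lower.

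Emp2 was at 1375 CPM (1314 to 1438) in the Car4 gate at E18.5 and at 133 CPM (126 to 140) in the Gpihbp1 gate, and at 2978 CPM (2883 to 3076) and 220.5 CPM (208 to 234) at P8. The log2 ratios were 3.36 and 3.75. Of thinned Car4-gate cells, 81.4% (76.1 to 86%) held an Emp2 UMI at E18.5 and 95.4% (91.7 to 97.8%) at P8, against 14.4% (12.8 to 16.2%) and 21% (18.4 to 23.9%) of Gpihbp1-gate cells. In ECs with Car4 alone Emp2 was higher at P8 than at E18.5 (log2 ratio 1.11), and in all ECs that passed the Car4 gate the ratio was 0.56. ECs with at least 2 Car4 UMIs, whatever their other gates, made up 0.106%, 9.34% and 21.6% of ECs at E15.5, E18.5 and P8. In the Gja4 gate Emp2 was at 80.7 CPM (77 to 84.4) at E18.5 and 76.1 CPM (70.4 to 82.1) at P8, with overlapping intervals. In all ECs that passed the Gja4 gate, Car4-expressing ones included, it was at 112 and 408 CPM. Of whole E18.5 lung ECs, 2.74% (labelled control) and 6.93% (labelled null) held at least 2 Car4 UMIs. With Car4 alone they numbered 15 and 36, too few for a level. ECs with Gpihbp1 and Car4 but not Gja4 held Emp2 at 269 CPM in the library labelled null (106 cells). The same combination was at 804 CPM in the sorted E18.5 library (308 cells). Emp2 is also a gene of alveolar type 1 cells. Each of the 6 markers of those cells, apart from Rtkn2, had counts in the sorted Car4 and Gpihbp1 gates at E18.5 and P8. Rtkn2 was at 0 only in the Car4 gate at P8. The 6 summed to 798 and 1845 CPM in the Car4 gate, against 343 and 552 in the Gpihbp1 gate. The 6 epithelial markers were at 17.2 and 30 CPM in the Car4 gate, below the 574 and 644 CPM of the Gpihbp1 gate. In the Car4 gate Epcam, Cdh1 and Sftpb were at 0 at E18.5, and Krt8 was at 0 at P8. A sum does not show which gene carries it, and the part of type 1 cell RNA in the Emp2 level was not tested.

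Plvap was lowest in the Car4 gate. It was at 56.6 CPM (44.8 to 70.6) at E18.5 and 28.4 CPM (19.8 to 39.4) at P8, against 446 CPM (434 to 458) and 701 CPM (678 to 724) in the Gpihbp1 gate. From E18.5 to P8 its log2 ratio was 0.97 in ECs with Gja4 alone, 0.65 with Gpihbp1 alone and -0.97 with Car4 alone. The lower P8 level did not extend to all Car4-expressing ECs: over the 852 and 1783 ECs that passed the Car4 gate, whatever their other gates, Plvap was at 216 CPM before birth and 426 CPM after it (log2 ratio 0.97). ECs with Gpihbp1 and Car4 but not Gja4 were at 193 and 322 CPM, and those with all 3 genes at 306 and 481 CPM. Those with Gja4 and Car4 but not Gpihbp1 (72 and 63 cells) were lower at P8 too, at 330 and 288 CPM. A Plvap UMI was found in 7.36% (4.49 to 11.3%) and 5.07% (2.56 to 8.89%) of thinned Car4-gate cells, against 47.2% and 65.7% of Gpihbp1-gate cells. Non-endothelial mesenchymal cells of the same libraries, which should lack the gene, gave 2.03% (0.747 to 4.36%) and 1.45% (0.0367 to 7.81%), so the Car4-gate intervals overlapped the background at P8, where that background rests on 69 cells, and lay above it at E18.5. Median depths were 5137 and 5474 UMIs in the Car4 gate and 8596 and 7719 in the mesenchymal cells.

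Cldn5 was at 5601 CPM (5478 to 5727) in the Car4 gate at E18.5 and 9030 CPM (8863 to 9199) at P8. The ratio to the Gpihbp1 gate was past 2-fold at E18.5 (log2 1.25) and just under it at P8 (0.96), where the Gpihbp1 gate was at 4652 CPM. Jam2 was lower in the Car4 gate, at 49.5 CPM (38.5 to 62.6) and 25.9 CPM (17.7 to 36.6). Across the 3 gates at P8 Jam2 thus ran from Gja4 through Gpihbp1 to Car4 in descending order, and Cldn5 and Emp2 in ascending order, with no overlap of counting intervals between neighbours.

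The caveola coat genes did not move as 1 group between these gates. Cav2 was higher in the Car4 than in the Gpihbp1 gate, at 634 CPM (593 to 678) against 374 CPM (362 to 385) at E18.5 and 626 CPM (583 to 672) against 437 CPM (419 to 456) at P8. Cavin1 was lower, at 153 CPM (133 to 175) against 221 CPM (212 to 230) at E18.5 and 119.9 CPM (101 to 141) against 222 CPM (209 to 236) at P8. Cav1 was lower too, by a log2 ratio of -0.16 at E18.5 and -0.76 at P8, and Cavin2 was higher, by 0.29 and 0.34. None of these 4 was past 2-fold. Esam differed by 0.17 and 0.24, the smallest P8 difference of the 10.

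**Figure D2:**
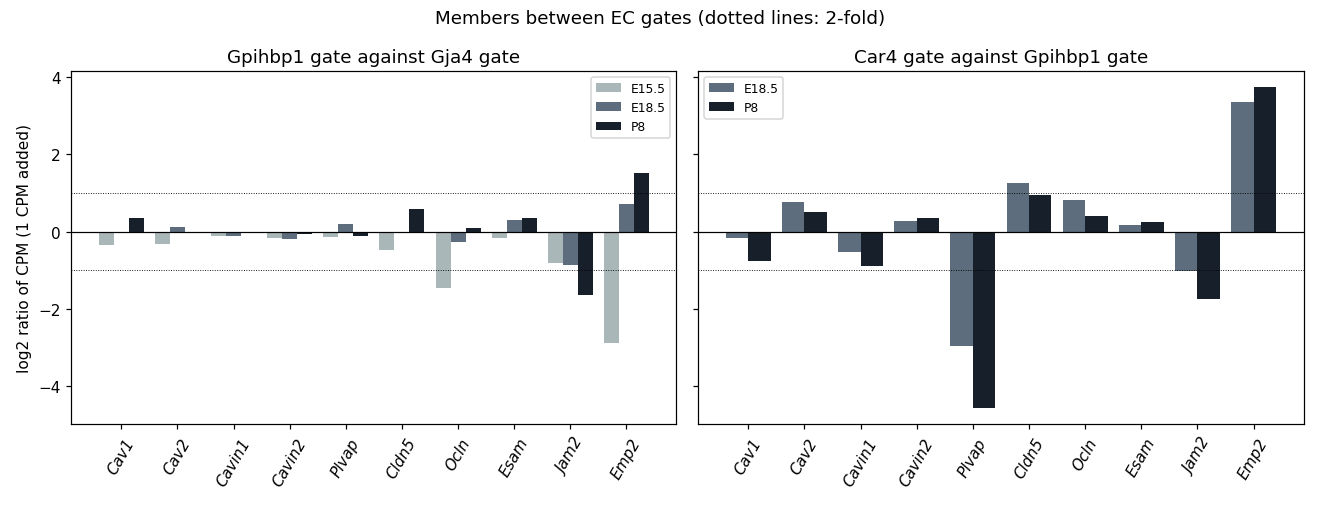
Log2 ratio of CPM (vertical axis, 1 CPM added) for the 10 members between the Gpihbp1 and Gja4 gates (left) and between the Car4 and Gpihbp1 gates (right), with bars shaded by time point and dotted lines at 2-fold. On the right, Emp2 stands above the upper line and Plvap and Jam2 below the lower line at both ages.

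Of the listed relatives, Pmp22, Tmem47, Nectin3, Vcl and Icam2 were higher past 2-fold in the Car4 gate at both ages and Ehd1, an ATPase of endocytic recycling, was lower. Pmp22 was at 3045 CPM in the Car4 gate at P8 and 554 in the Gpihbp1 gate. Nectin3 was at 415 and 101 CPM. At P8 Marveld1 and Emp3 were lower in the Car4 gate as well.

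ECs that passed the Car4 gate together with another had Emp2 and Plvap levels between those of the Car4 gate and the Gpihbp1 gate. At P8 ECs with Gpihbp1 and Car4 but not Gja4 held Emp2 at 1434 CPM and Plvap at 322 CPM, and ECs with all 3 genes held Emp2 at 989 and Plvap at 481 CPM. ECs with Gja4 and Gpihbp1 but not Car4, the most numerous combination at P8, held Emp2 at 141 CPM and Plvap at 922 CPM. With overlapping gates the log2 ratio of the Car4 to the Gpihbp1 gate was 2.06 for Emp2 and -1.09 for Plvap at E18.5, both past 2-fold, while Cldn5 (0.80) and Jam2 (-0.72) were not. At P8 it was 1.25 for Emp2, past 2-fold, and -0.76 for Plvap and -0.57 for Jam2, which were not. Gates applied after thinning each cell to 2000 UMIs gave -1.81 for Plvap, 2.51 for Emp2 and -1.11 for Jam2 at P8, each still past 2-fold. At E18.5 the same setting gave -2.14 for Plvap, past 2-fold, and -0.70 for Jam2, which was not.

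ECs were also split by their Emp2 UMIs, whatever their gates, as a description, since cells of 1 library are not replicates. This split follows Car4 in part: at E18.5 a Car4 UMI was found in 3.53% of ECs with no Emp2 UMI and 63.7% of those with 4 or more, and the P8 shares were 8.32% and 73.7%. The values are therefore not independent of the Car4 contrast. Of E18.5 ECs with 1 Emp2 UMI, 17.5% held a Car4 UMI and 31.9% a Plvap UMI. The bins were not split further by Car4. At P8, 70.5% of the 5807 thinned ECs with no Emp2 UMI held a Plvap UMI. The share was 63.5% with 1 Emp2 UMI, 50.3% with 2 to 3 and 30% of the 597 ECs with 4 or more. Mean Cldn5 went from 7.6 to 14.3 UMIs per thinned cell over the same range and the share with a Jam2 UMI from 25.5% to 9.38%. At E18.5 the Plvap share went from 50.5% to 11.1% and mean Cldn5 from 4.46 to 11.5 UMIs. The order of the 4 bins was therefore the same at both ages for these measures.

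**Figure D3:**
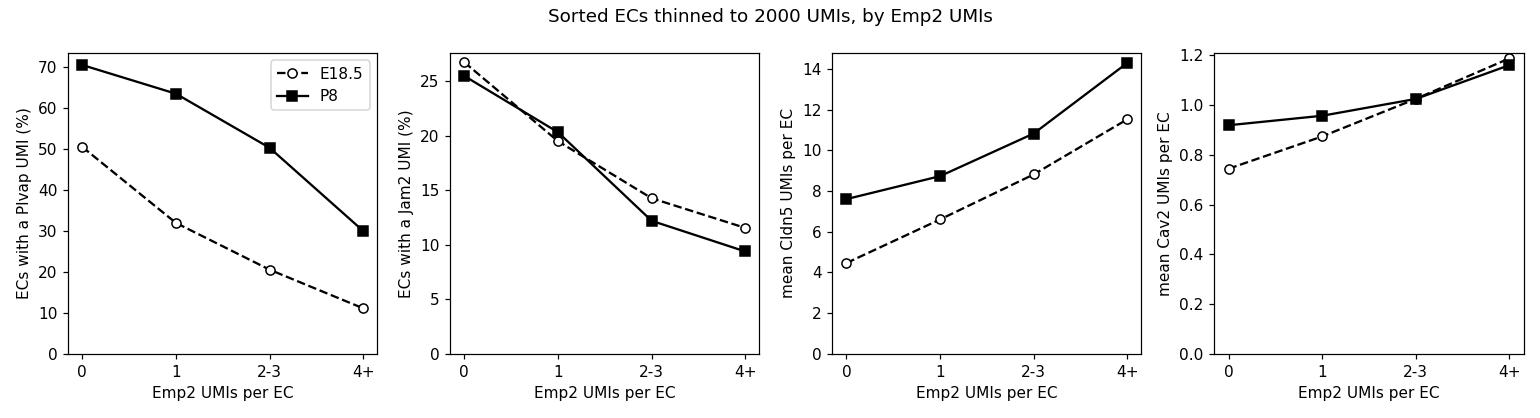
Sorted ECs thinned to 2000 UMIs each, split by their Emp2 UMIs (horizontal axis), at E18.5 (open circles) and P8 (filled squares). The vertical axes give the percent of ECs with a Plvap or a Jam2 UMI and the mean Cldn5 or Cav2 UMIs per EC. Plvap and Jam2 decline from left to right while Cldn5 and Cav2 climb.

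Other ECs of the sorted libraries added to the range. ECs with at least 2 UMIs of the lymphatic genes Prox1 and Mmrn1 (139 cells) had Cavin2 at 990.2 CPM (942 to 1040.3) at E18.5, above the 616 CPM of all ECs, with Cav1 at 830.1, Plvap at 222 and Esam at 274 CPM, each lower than in all ECs. ECs with at least 2 Esm1 UMIs, a gene of angiogenic tip cells, had the highest Plvap level of the sorted populations, 1179.6 CPM (1156 to 1203) at P8 and 798 CPM (751 to 848) at E18.5. Cycling ECs (at least 2 UMIs of Mki67 and Top2a) had Cldn5 at 1717 CPM at E18.5 and 3180 at P8, below all ECs.

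Across 15 sorted EC gate populations, the genes most like each member in log2 level were given by Pearson's r, as a description over populations that share libraries. Emp2 was closest to Ccdc68 (r = 0.99), Nipal3 (0.99) and its relative Pmp22 (0.98). Cav2 was closest to Fas (0.99), Cav1 to Hmox1 (0.91), Cavin1 to Zfp36l2 (0.90) and Cavin2 to Pxdc1 (0.99). Plvap was closest to Tox3 (0.95), Cldn5 to Osbpl8 (0.99), Ocln to Tmem50a (0.99), Esam to Il10rb (0.97) and Jam2 to Zfp36l2 (0.97). Among the members themselves, Cav2 had r of 0.93 with Cavin2 and 0.41 with its neighbour Cav1, and Cavin1 had 0.87 with Jam2 and 0.54 with Cav1.

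In whole E18.5 lungs, ECs were the cells with at least 2 UMIs of Pecam1 and Cdh5 whose summed markers of epithelial, mesenchymal and immune cells were each at most 0.5 times as high (1753 and 2670 cells in the libraries labelled control and null). Against the other 3 classes together, 8 of 9 tested members were higher past 2-fold in ECs of the library labelled control (background 16.2%) and the same 8 in the library labelled null (background 16.3%). The exception was Emp2, lower in ECs by log2 ratios of -1.40 and -1.61. Those backgrounds are for higher genes, and the share of tested genes lower by the same rule was not counted. Ocln was below 50 CPM in both populations. The median log2 ratio of tested members was 3.28 and 3.24, against 0.15 and 0.15 over all genes tested.

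The steepest contrast was that of the junction gene Cldn5, at 2102 CPM (2079 to 2125) in ECs of the library labelled control against 22.6 CPM (21.4 to 23.9) in the other classes. Plvap (624 against 9.9 CPM) and Esam (714 against 15 CPM) followed. The coat genes were less confined than Cldn5, Plvap and Esam: Cav1 was at 1310 against 77.2 CPM, Cav2 at 293 against 29.2, Cavin1 at 256 against 56.4 and Cavin2 at 564 against 101. Jam2, also a junction gene, had a smaller ratio than Cav1 and Cav2. With the values from which the authors had subtracted free RNA (SoupX), the 9 EC ratios were larger in size in both libraries and kept their directions. In the library labelled control the log2 ratio was then 7.95 rather than 6.48 for Cldn5, 5.43 rather than 4.07 for Cav1, 3.63 rather than 2.16 for Cavin1 and -2.50 rather than -1.40 for Emp2. Of the other classes, mesenchymal cells had Cavin1 at 71.5 CPM and Cavin2 at 146 CPM, against 21.9 and 24.9 in immune cells. Among mesenchymal gates, Cav1 was highest in Higd1b+Cox4i2 cells, genes of pericytes, at 295 CPM (273 to 318), where Esam was also highest (89.2 CPM, against 14.7 in the Myh11+Cnn1 gate). Of the listed relatives, 6 of 6 tested caveola genes were higher past 2-fold in ECs of the library labelled control and 5 of 6 in the library labelled null, with Nostrin and Cd36 first in both, before Ehd2 and Ehd4. Of the tight junction list, Tjp1 and F11r were higher and the epithelial claudins Cldn3 and Cldn18 were lower in both. Of the other junction genes 7 of 9 tested were higher in both libraries, led by Icam2, Jup, Afdn and Ctnnd1, and of the Emp2 relatives Emp1 and Tmem47 were.

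Epithelial cells were assigned to the pair of marker genes with the highest sum, and those assigned to Ager and Rtkn2, genes of alveolar type 1 cells, were set against the other epithelial cells. The gate held 161 and 74 cells in the libraries labelled control and null, and 3 of 5 tested members were higher past 2-fold in each (background 15.7% and 19.4%). These were Cav1, Cavin1 and Emp2. With SoupX-adjusted values Cavin1 was not tested in the library labelled control, and the log2 ratio of Cav1 went from 2.41 to 5.70 there and from 2.42 to 6.30 in the library labelled null. In the library labelled control Cav1 was at 118 CPM (105 to 133) in the gate against 21.3 CPM (18.1 to 25) outside it, Cavin1 at 82 against 33.6 CPM and Emp2 at 767 CPM (733 to 803) against 175 CPM (166 to 185). Cav2 differed less, at 80.4 and 67.5 CPM. In the library labelled null the gate had Cav1 at 150.4, Cavin1 at 78.6 and Emp2 at 862 CPM. Tested members had a median log2 ratio of 1.26 and 1.30, against -0.05 and -0.05 over all genes tested. The gate held alveolar type 2 markers at 53068 and 49561 CPM, against 135170 and 141276 in the gate of the type 2 genes Lamp3 and Abca3, and the part of such mixed cells in these levels was not tested. Of the relatives, Cldn18 and Pmp22 were higher past 2-fold in the Ager and Rtkn2 gate of both libraries, and Cgnl1 was lower there in the library labelled control.

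Of the whole-lung populations, Emp2 was highest in cells of the mesothelial gate (Msln and Upk3b), at 1734 CPM (1675 to 1795) in the library labelled control and 1839.5 CPM (1779.6 to 1901) in the library labelled null. Those cells held epithelial markers at 9849 and 21594 CPM. Cav1 (387 and 412 CPM) and Cavin1 (155 and 145 CPM) were also higher there than in the epithelial gates.

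Epithelial cells assigned to Foxj1 and Tmem212, genes of ciliated cells, were few (60 and 61) and held Cav2 with little Cav1. Cav2 was at 179 CPM (157 to 203) and 208 CPM (185 to 234) in the libraries labelled control and null, and Cav1 at 13.5 CPM (7.98 to 21.3) and 26.9 CPM (18.9 to 37). Of thinned cells of this gate, 28.3% (17.5 to 41.4%) and 33.3% (21.7 to 46.7%) held a Cav2 UMI. The shares with a Cav1 UMI, 1.67% (0.0422 to 8.94%) and 5% (1.04 to 13.9%), overlapped those of immune cells (5.98% and 5.72%). Ocln had its highest level of these populations in the same gate, at 77.8 CPM (63.5 to 94.2) and 91.5 CPM (76.2 to 109).

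Over 28 whole-lung populations Cavin1 was closest to Cavin2 (r = 0.94) and had Cav1 as the third (0.93), and Cavin2 was closest to Cavin1. Cav1 was closest to Esam (0.96), Plvap to Kit (0.98), Cldn5 to Ccm2l (0.99) and Emp2 to Hs2st1 (0.94). Cav2 was closest to Galnt18 (0.94), Ocln to Gprin3 (0.96) and Jam2 to Fam181b (0.97). These r values are also over populations of the same 2 libraries.

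**Figure D4:**
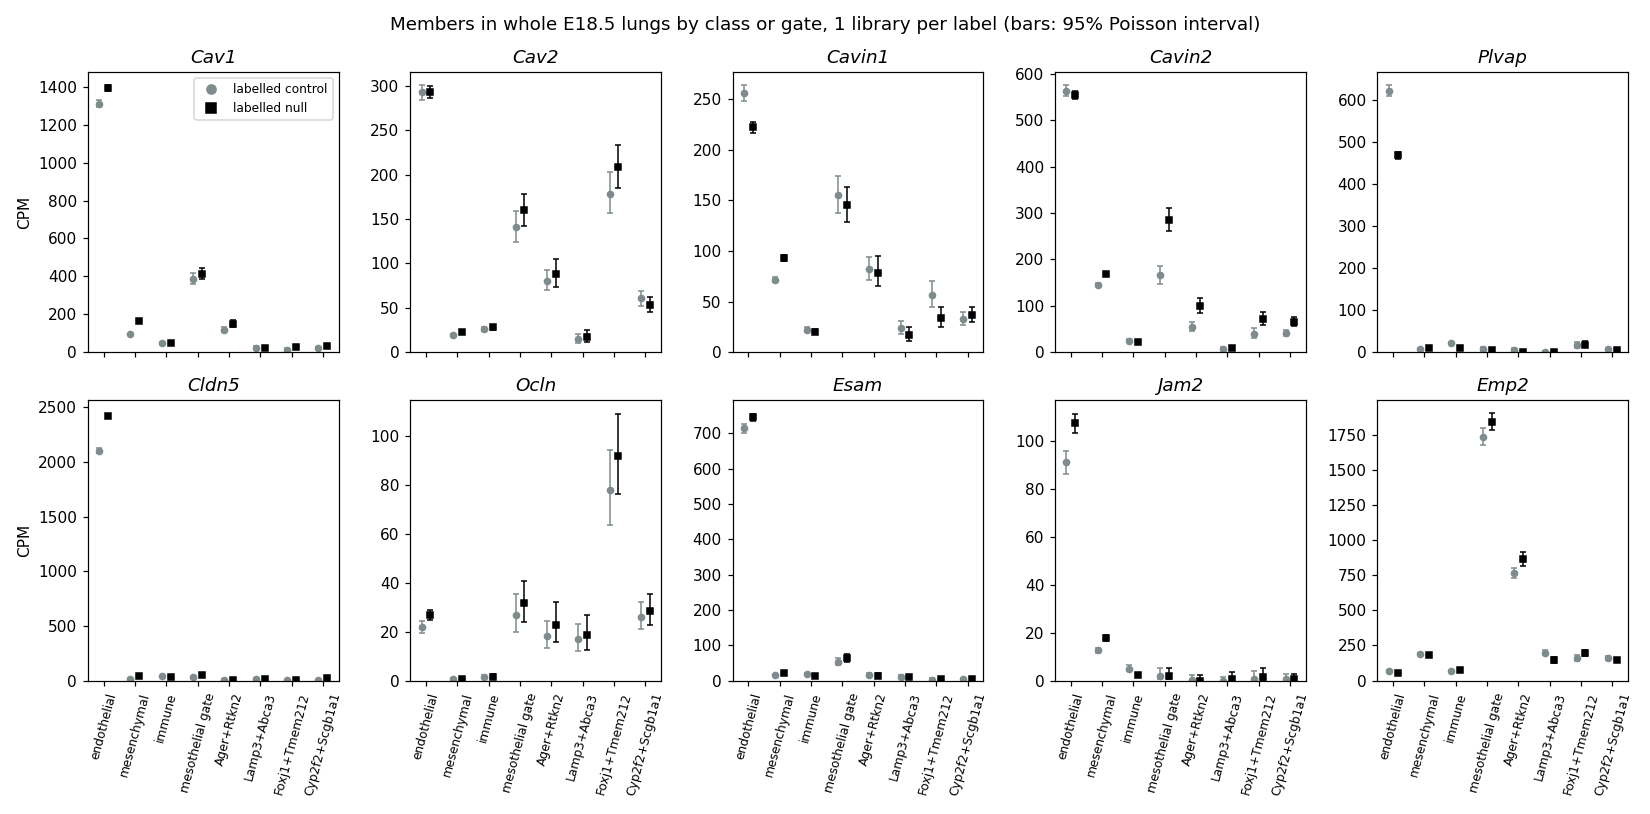
Level of each member (vertical axis, CPM) in the classes and marker gates of whole E18.5 lungs (horizontal axis) in the library labelled control (grey circles) and the library labelled null (black squares), with 95% Poisson intervals. Most members are highest in endothelial cells, and Emp2 is highest in the mesothelial and Ager+Rtkn2 gates. Cav2 has a second high point in the Foxj1+Tmem212 gate, where Ocln is highest.

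The last comparison set the library labelled null against the library labelled control, where Cxcl12 itself ran against the labels. By the reported settings no member was past 2-fold in ECs (9 tested, background 0.301%), epithelial cells (4 tested, 0.69%), mesenchymal cells (4 tested, 0.503%) or immune cells (2 tested, 0.683%). The count was not 0 under every alternative: Cavin2 was higher past 2-fold in epithelial cells of the library labelled null after thinning, and in its mesenchymal cells Cldn5 was after thinning and with a minimum of 10 CPM, and Cavin1 with SoupX values. With 1 library per label, no p-value can be given for any of these. The median log2 ratio of tested members was 0.00 in ECs, 0.20 in epithelial, 0.29 in mesenchymal and 0.04 in immune cells, against 0.01, 0.06, -0.02 and 0.03 over all genes tested.

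The tested member with the widest EC difference was Plvap, at 469 CPM (461 to 477) in the library labelled null and 624 CPM (611 to 636) in the library labelled control. The gates were not equally filled: Gja4 alone made up 21.6% of ECs labelled null and 12.2% of those labelled control, and Gpihbp1 alone 39.4% and 58.7%. Within the Gpihbp1 gate Plvap was at 521 and 656 CPM, and within the Gja4 gate at 335 and 407, so it was lower in the library labelled null within each. Emp2 likewise was lower there in ECs, at 56 CPM (53.2 to 58.9) against 69.2 CPM (65.1 to 73.5). Within the gates it was at 36.8 against 58.4 CPM (Gpihbp1) and 39.1 against 58.6 CPM (Gja4). Jam2 and Cldn5, higher in ECs labelled null by log2 ratios of 0.24 and 0.20, were at -0.10 and -0.06 within the Gja4 gate and at 0.27 and 0.21 within the Gpihbp1 gate.

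In mesenchymal cells Cav1 was at 166 CPM (163 to 170.2) in the library labelled null and 95 CPM (91.9 to 98.2) in the library labelled control, and Cldn5, below 50 CPM in both, at 39.6 and 19.1 CPM. Pecam1, an endothelial gene, was at 12.9 and 6.03 CPM in these cells. It helps to define the classes, which limits its level here, so it cannot measure endothelial RNA among them. The part of such RNA in the differences was not tested. Cavin2 in epithelial cells (60.9 and 35 CPM, log2 ratio 0.78) was the widest of the tested epithelial differences. On the lists of relatives, no caveola, junction or Emp family gene was past 2-fold between these libraries in any of the 4 classes.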

How the data were processed

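Single-cell suspensions of mouse lung were measured in 6 libraries, 4 sorted and 2 of whole lung. The authors deposited UMI counts per gene and cell, made with Cell Ranger on mm10 (per the labels 3.1, per the file headers 3.0.2 for E15.5, E18.5 and P8 and 3.1.0 for the rest), and for whole lungs also expected counts, which the authors made by subtracting free RNA with SoupX and which served as an alternative. The annotation used for counting is not given in the sources used here.

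Kept cells had 700 genes or more and a mitochondrial share of 0.5 to 10%. No doublet caller was run, and an alternative left out sorted ECs with markers of other classes. Counts were summed per population of at least 50 cells and given as CPM with exact Poisson 95% intervals. Shares of cells were computed after thinning to 2000 UMIs, with exact Clopper-Pearson intervals. Each of the 16 comparisons had 1 library per group and no test. A gene was past 2-fold at a log2 ratio of 1 in size, after 1 CPM was added, with at least 50 CPM in 1 population. Sample groups came from the labels. The members and lists were chosen with earlier results of these data known. All 10 members are named, and from each list the genes past 2-fold, at most 4 by size. Scripts used Python 3.11.15, numpy 2.4.6, scipy 1.17.1 and pandas 2.3.3 and were tested on simulated data.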

Additional observations from a re-analysis of the deposited data

Results flagged for a closer look

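The direction of the Plvap difference from E18.5 to P8 was not the same in ECs that passed each of the 3 gates alone. The log2 ratio was 0.97 in the Gja4 gate (390.1 CPM at E18.5 and 763 at P8), 0.65 in the Gpihbp1 gate (446 and 701 CPM) and -0.97 in the Car4 gate (56.6 and 28.4 CPM). Of these 3 gates the opposite direction was seen with Car4 alone (267 and 223 ECs). ECs with Gja4 and Car4 but not Gpihbp1 (72 and 63 cells) were also lower at P8, at 330 and 288 CPM. When every EC that passed a gate was counted in it, the ratios were 0.77, 0.64 and 0.97 (216 and 426 CPM in the Car4 gate). That alternative was chosen after seeing the data. With 1 library per time point the difference between the gates was not tested.

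The direction of the Cldn5 difference between the Gpihbp1 and Gja4 gates turned with age. The log2 ratio was -0.47 at E15.5 (815 against 1129 CPM) and 0.59 at P8 (4652 against 3084 CPM), or -0.37 and 0.13 with every EC that passed a gate counted in it, and the difference between the ages was not tested.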

How the results depend on the processing

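Of 177 recomputed counts of members past 2-fold, 163 stayed within 1.5 times the reported count and 14 moved. Overlapping gates gave 0 members between the Gpihbp1 and Gja4 gates at P8 (2 reported), and 2 at E18.5 (4 reported) and 1 at P8 (3 reported) between the Car4 and Gpihbp1 gates. Gates applied after thinning to 2000 UMIs gave 1 from E13.5 to E15.5 (2 reported, without Jam2), 1 between the Gpihbp1 and Gja4 gates at P8 (Jam2), and, between the libraries labelled null and control, 1 in epithelial (Cavin2) and 1 in mesenchymal cells (Cldn5), where 0 were reported. A minimum of 10 CPM, which tests more genes, gave 2 between the Gpihbp1 and Gja4 gates at E15.5 (Ocln and Emp2, 0 reported), 5 in the Ager gate of the library labelled null (3 reported) and 1 in mesenchymal cells (Cldn5, 0 reported). The mean of per-cell CPM gave 2 from E18.5 to P8 (1 reported, with Cav1 added as lower) and 1 between the Gpihbp1 and Gja4 gates at E18.5 (Emp2, 0 reported), and centring on the median ratio also gave 2 from E18.5 to P8. SoupX-adjusted values gave 1 in mesenchymal cells (Cavin1, 0 reported). Apart from the minimum of 10 CPM, the cause was not tested. In ECs of the Gja4 gate alone and of the Gpihbp1 gate alone, an alternative chosen after seeing the data, 0 members were past 2-fold between the libraries labelled null and control. Counting every EC that passed a gate, also chosen after seeing the data, reversed the E18.5 to P8 ratio of Plvap in the Car4 gate to 0.97 and of Emp2 in the Gja4 gate to 1.85, and the near-zero Cldn5 ratio of the Gpihbp1 to the Gja4 gate at E18.5 to 0.035. Of 451 recomputed member ratios, 435 were still past 2-fold, while 280 were scored as the same in value and 171 as moved. Among the 451 are the ratios with a minimum of 10 CPM, which repeat the reported ones by construction. They also include the ratios of ECs to the other classes, none of which fell below 2-fold. Every ratio that fell below it belonged to a time step or to a comparison of sorted EC gates. The 200 recomputed levels lay between 0.80 and 1.27 times the reported ones, with 124 scored as the same and 76 as moved. For levels that scoring was stricter than the 1.5 times used for the counts. The printed intervals cover counting error only and not these processing choices. The Ager gate of the library labelled null was not run after thinning, since too few cells were left. No paired analysis was possible because each group had 1 library, and the libraries in which gates were compared with each other differ in age, sort or label, so the gates were not tested across libraries. Ocln was below 50 CPM in all sorted ECs, and the EC values at E13.5 rest on 210 cells.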
